A study of Mus musculus with 8 samples.

Results

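The genes studied here were the collagens, laminins and basement membrane proteins of the mouse testis, taken as all rows of the deposited gene table whose symbol was that of a collagen chain, a laminin alpha, beta or gamma chain, a nidogen, fibronectin (Fn1), perlecan (Hspg2) or Sparc. The rule found 61 of the 19906 genes of the table. One of them, Col4a3bp, encodes a ceramide transfer protein and matched by its symbol alone, which left 60 matrix genes. Of these, 22 are basement membrane genes, namely 6 type IV collagens, 11 laminin chains, 3 linkers and proteoglycans and 2 multiplexins. RNA was sequenced from whole testes of C57BL/6 mice aged 2 months, with 1 library per mouse. In 4 mice both copies of Tmem232 had been disrupted by CRISPR-Cas9 (Tmem232-/-), and 4 mice were wild-type (Tmem232+/+). The Tmem232-/- mice came from a purchased line that lacks several coding exons of the gene in every tissue, and no other allele or treatment was given for either group. The comparison asks how gene expression in the testis differs after loss of Tmem232.

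Collagens are trimers of alpha chains, and the genes fall into classes by the structure their trimers build. Type IV collagen forms the sheet-like network of basement membranes, laminin trimers form another network that faces the cell, and nidogens and perlecan tie both together. In the testis a basement membrane surrounds each seminiferous tubule and is made by the Sertoli cells inside it and the peritubular myoid cells outside it, while blood vessels carry their own. Fibrillar collagens, and the FACIT collagens that sit on their surface, lie in the interstitium, the tubule wall and the capsule of the organ.

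Total counts lay between 15428421 and 16350871 per library, and the 61 genes took between 0.268% and 0.382% of them. The level of Tmem232 could not check the labels, because counts per gene also take in the exons that the disrupted allele keeps. Its level in CPM, the count scaled to library size by the TMM method, was 148, 132, 123 and 122 in the libraries labelled Tmem232-/- (replicates 1 to 4) and 111, 106, 108 and 110 in those labelled Tmem232+/+. It was higher in the libraries labelled Tmem232-/- (log2 fold change 0.27, SE 0.072, adjusted p = 0.034, edgeR), a call lost without Tmem232-/- replicate 1 or 2 (adjusted p = 0.086 for both) or Tmem232+/+ replicate 2 or 4 (0.089 for both) and with libraries scaled to somatic cell markers (log2 fold change 0.24, adjusted p = 0.39). Each direction below therefore rests on the labels. Tmem232+/+ replicate 3 stood apart from the other Tmem232+/+ libraries, with a chi-square per degree of freedom of 14.7 to 23.5 against them, compared with 3.8 to 6.7 among those 3. Between Tmem232-/- libraries it was 3.6 for replicates 2 and 3 and 8.3 to 13.8 for all other pairs. The 8 markers of elongating spermatids summed to between 1108 and 1865 CPM in the Tmem232-/- libraries and between 277 and 550 CPM in the Tmem232+/+ libraries, and all 8 were called higher, with Prm1 and Tnp1, which package sperm chromatin, at log2 fold changes of 4.40 and 3.54. In whole testis, fewer cells of a type and less RNA per cell cannot be told apart.

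Levels between genes were compared per length, in FPKM. Sparc, a collagen-binding glycoprotein secreted by Sertoli and other testicular cells, stood far above all others at a mean of 358 FPKM over the 8 libraries and took 44.9% of the summed FPKM of the 61 genes. The 5 genes with the highest levels, which also included the interstitial collagens Col1a2 (54.9 FPKM), Col3a1 (49.5 FPKM) and Col1a1 (35.0 FPKM) and the FACIT collagen Col16a1 (27.3 FPKM), took 65.8%. A mean of at least 10 FPKM was reached by 14 of the 61 genes and at least 1 FPKM by 41. Among basement membrane genes the highest means were those of Col4a1 (19.8 FPKM), Col18a1 (19.1 FPKM), Lamb2 (15.3 FPKM), Col4a2 (12.2 FPKM) and Nid1 (11.4 FPKM). Col10a1, the collagen of growth plate cartilage, had 0 to 3 counts per library and was the only one of the 61 genes that the filter on low counts removed.

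**Figure D1:**
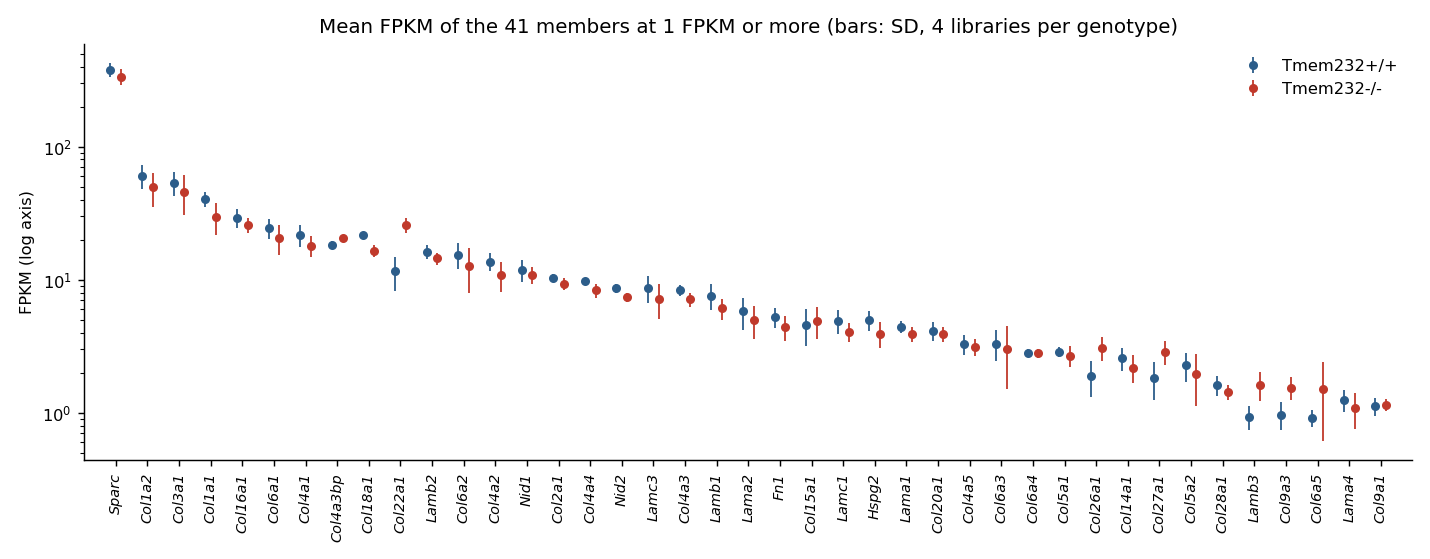
Mean FPKM (log axis) of the 41 genes at 1 FPKM or more, in order of their mean, with blue for Tmem232+/+ and red for Tmem232-/- and bars for the SD over 4 libraries. Sparc stands apart at 358 FPKM, and Col22a1 shows the widest gap between genotypes among the genes above 10 FPKM.

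Calls in the class covered 8.33% of the 60 tested genes, beside 11.8% of all tested genes. Of the 60 genes tested, 3 were called higher in Tmem232-/- (Col22a1, Lamb3 and Col9a3) and 2 lower (Col18a1 and Lama5), where called means an adjusted p under 0.05 in the quasi-likelihood test of edgeR, adjusted over all 15787 tested genes. Over all tested genes 10.3% were called higher and 1.46% lower, so the share called higher was below the background and the share called lower, which rests on 2 genes, above it. An unadjusted p under 0.05 in the same edgeR test was found for 16 of the 60 genes and for 3962 of all 15787. In CPM, 3 genes had all 4 Tmem232-/- libraries above all 4 Tmem232+/+ libraries (Col22a1, Lamb3 and Col4a3bp), against 11.8% of all tested genes, and 3 had them all below (Col18a1, Lama5 and Col17a1), against 6.88%. The log2 fold change was negative for 42 genes and positive for 18, beside 9600 negative and 6187 positive over all tested genes. It had a median of -0.15 and a range from -1.32 (Col9a2) to 1.18 (Col22a1), beside a median of -0.05 over all tested genes. Without single libraries the median of the 60 ranged from -0.21 (without Tmem232-/- replicate 2) to -0.04 (without Tmem232+/+ replicate 1, beside -0.01 over all genes), and it was -0.08 without Tmem232-/- replicate 1. It stayed within 0.5 of 0 for 51 of the 60.

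**Figure D2:**
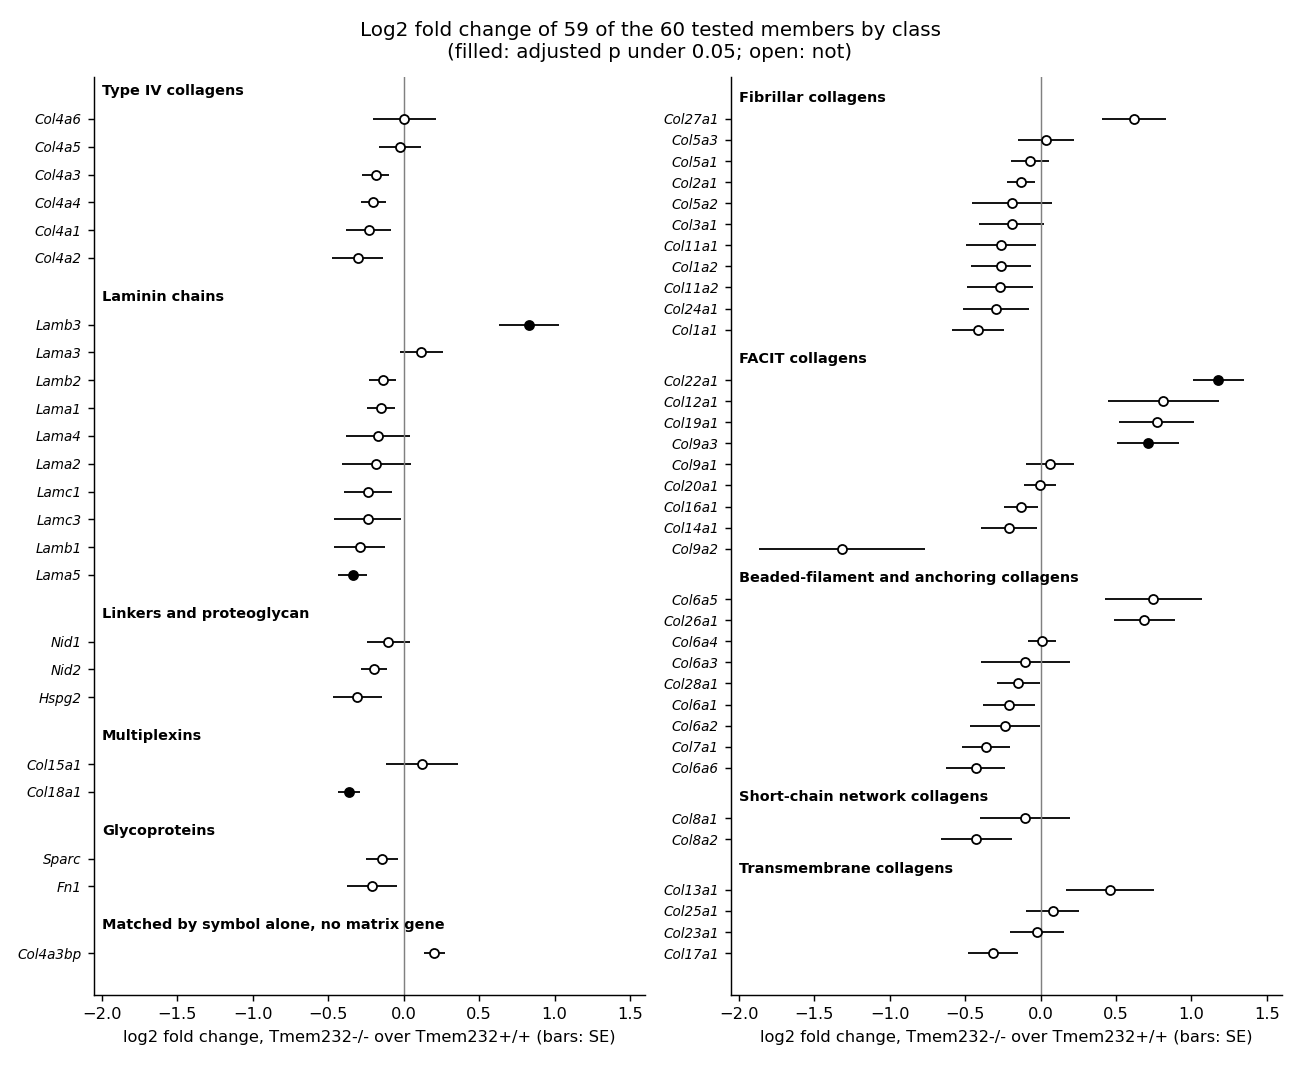
Log2 fold change of 59 of the 60 tested genes, Tmem232-/- over Tmem232+/+, by class, with bars for the SE and filled symbols for an adjusted p under 0.05. Most genes lie slightly left of 0, and the 5 called genes are Col22a1, Lamb3 and Col9a3 to the right and Col18a1 and Lama5 to the left.

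No type IV collagen was called, and 5 of the 6 had a negative log2 fold change (median -0.19, range -0.30 to 0.00). These genes lie in head-to-head pairs, Col4a1 with Col4a2, Col4a3 with Col4a4 and Col4a6 with Col4a5, and the chains of the first pair assemble into the trimer found in nearly all basement membranes. The RefSeq start sites of Col4a1 (minus strand, base 11312826 of chromosome 8, GRCm38.p6) and Col4a2 (plus strand, base 11312805) lie 21 bases apart, so these transcripts share a stretch of 22 bases, while the RefSeq span of Col4a1 reaches on to base 11312889. The stretch is shown because it joins both start sites, read on the plus strand at chr8:11312805-11312826, and the capitals mark the letters GGGCGG, a GC box.
Col4a1 and Col4a2: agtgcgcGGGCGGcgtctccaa

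Col4a1 was at 91.3, 138, 115 and 124 CPM in the Tmem232-/- libraries and at 146, 162, 101 and 141 CPM in the Tmem232+/+ libraries. Col4a2 was at 45.8, 84.3, 66.9 and 76.9 CPM in the Tmem232-/- libraries and at 88.1, 95.2, 65.4 and 89.6 CPM in the Tmem232+/+ libraries. In both genes Tmem232-/- replicate 1 and Tmem232+/+ replicate 3 were the lowest of their genotype, and the genotypes overlapped (log2 fold changes -0.23 and -0.30, SE 0.15 and 0.17, adjusted p = 0.37 and 0.30). Within a library the FPKM of Col4a1 was 1.51 to 1.95 times that of Col4a2. Col4a3, Col4a4 and Col4a5 encode the chains of the trimer known from the glomerulus and also from the tubule wall of the testis. Col4a4 was at 68.8, 88.1, 71.9 and 78.1 CPM in the Tmem232-/- libraries and at 87.5, 93.5, 82.1 and 89.4 CPM in the Tmem232+/+ libraries, with overlap at Tmem232-/- replicate 2 (log2 fold change -0.20, SE 0.084, adjusted p = 0.16). Col4a3 was close to it per length, at 0.792 to 0.899 times its FPKM in the 8 libraries. Col4a5 and Col4a6, on chromosome X, had log2 fold changes of -0.02 and 0.00. Col4a5 and Col4a6 do not overlap, and their RefSeq start sites lie 1343 bases apart. In the other pairs, Col4a1 with Col4a2 and Col4a3 with Col4a4, reads from the overlapping ends cannot be told apart, since strand-specific counting was not stated.

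Among the 11 laminin chains, 1 was called higher and 1 lower, beside 10.3% and 1.46% of all tested genes. Negative log2 fold changes were found for 8 of the 11, and the median was -0.17. Lamb3 (gene 16780, chr1:193294353-193343878, GRCm38), the beta chain of the laminin that anchors epithelia and also known from the contact between Sertoli cells and spermatids, rose. It was at 7.59, 5.84, 4.36 and 7.25 CPM in the Tmem232-/- libraries and at 2.80, 3.09, 4.05 and 4.11 CPM in the Tmem232+/+ libraries. All Tmem232-/- libraries were above all Tmem232+/+ libraries, with Tmem232-/- replicate 3 just above Tmem232+/+ replicate 4. The fitted difference was 1.78-fold (log2 fold change 0.83, SE 0.20, adjusted p = 0.018, edgeR) and rested on 45 to 118 counts per library. The call was lost without Tmem232-/- replicate 1 (log2 fold change 0.73, adjusted p = 0.062) or Tmem232+/+ replicate 2 (0.77, adjusted p = 0.059). Lama3, an alpha chain that assembles with it, had a log2 fold change of 0.12 (adjusted p = 0.65). The order of the Tmem232-/- libraries in Lamb3 was that of the summed markers of elongating spermatids, with replicate 1 highest and replicate 3 lowest. In the Tmem232+/+ libraries the orders differed. The part of these markers in the difference of Lamb3 was not tested.

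Lama5 (gene 16776, chr2:180176373-180227726, GRCm38), the alpha chain of most mature basement membranes, fell. It was at 10.1, 9.41, 8.66 and 10.1 CPM in the Tmem232-/- libraries and at 12.9, 11.8, 11.5 and 12.1 CPM in the Tmem232+/+ libraries. The genotypes did not overlap, and the mean was 9.55 ± 0.67 CPM in Tmem232-/- and 12.1 ± 0.61 CPM in Tmem232+/+ (SD, n = 4 each). The fitted difference was 1.26-fold (log2 fold change -0.34, SE 0.096, adjusted p = 0.043, edgeR), and the adjusted p was above 0.05 in 16 of 20 alternative fits, lying between 0.062 and 0.17 without each of Tmem232-/- replicates 1, 2 and 3 and of the 4 Tmem232+/+ replicates. In a fit scaled to somatic cell markers the log2 fold change was -0.37 with a wider SE of 0.14 (adjusted p = 0.15).

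The laminin chains with the highest levels per length did not pass the test. Lamb2, a beta chain of adult basement membranes, was at 70.9, 81.2, 78.5 and 87.4 CPM in the Tmem232-/- libraries and at 82.9, 101, 79.4 and 87.4 CPM in the Tmem232+/+ libraries (log2 fold change -0.14, SE 0.090, adjusted p = 0.36). Lamc3, a gamma chain known to be expressed in testis, was at 25.4, 55.6, 43.4 and 42.7 CPM in the Tmem232-/- libraries and at 52.7, 58.5, 32.9 and 53.2 CPM in the Tmem232+/+ libraries (log2 fold change -0.24, SE 0.22, adjusted p = 0.53). Lamb1, the other widespread beta chain, had a log2 fold change of -0.29 (SE 0.17, adjusted p = 0.32). In Lamc3 and Lamb1 the lowest library of each genotype was again Tmem232-/- replicate 1 and Tmem232+/+ replicate 3. Lama1 and Lama2, the alpha chains next in level, had log2 fold changes of -0.15 and -0.18.

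The nidogens and perlecan did not pass the test. Nid1 was at 54.5, 71.6, 73.2 and 58.8 CPM in the Tmem232-/- libraries and at 75.5, 77.7, 49.5 and 74.1 CPM in the Tmem232+/+ libraries (log2 fold change -0.10, adjusted p = 0.70). Nid2 was at 34.9, 38.7, 35.1 and 31.8 CPM in the Tmem232-/- libraries and at 41.6, 43.5, 35.8 and 40.0 CPM in the Tmem232+/+ libraries (log2 fold change -0.20, SE 0.085, adjusted p = 0.18). Hspg2 had the largest difference of the 3 (log2 fold change -0.31, SE 0.16, adjusted p = 0.27). For all 3, values of the genotypes overlapped. Nid2 overlaps the gene Rtraf, which was at a mean of 246 CPM in Tmem232-/- and had a log2 fold change of 0.01, and reads from the shared bases cannot be told apart.

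Col18a1 (gene 12822, chr10:77052178-77166530, GRCm38), a collagen of vascular and epithelial basement membranes whose end is released as endostatin, fell. It was at 75.4, 77.5, 85.6 and 90.4 CPM in the Tmem232-/- libraries and at 111, 109, 104 and 98.9 CPM in the Tmem232+/+ libraries. The highest Tmem232-/- library was below the lowest Tmem232+/+ library, and the mean was 82.2 ± 7.0 CPM against 106 ± 5.3 CPM (SD, n = 4 each). The fitted difference was 1.29-fold (log2 fold change -0.36, SE 0.075, adjusted p = 0.0071, edgeR) and rested on 1133 to 1805 counts per library. The call was lost without Tmem232+/+ replicate 1 (log2 fold change -0.30, adjusted p = 0.055) and with libraries scaled to somatic cell markers (-0.40, adjusted p = 0.057). The other multiplexin, Col15a1, was at 16.5, 32.3, 22.3 and 23.3 CPM in the Tmem232-/- libraries and at 22.7, 28.6, 12.6 and 22.8 CPM in the Tmem232+/+ libraries (log2 fold change 0.12, SE 0.24, adjusted p = 0.78). The ratio of Col18a1 to Col15a1 in FPKM was 2.35 to 4.41 in Tmem232-/- and 3.73 to 8.04 in Tmem232+/+ (exact permutation p = 0.14, two-sided, smallest possible p 0.029).

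**Figure D3:**
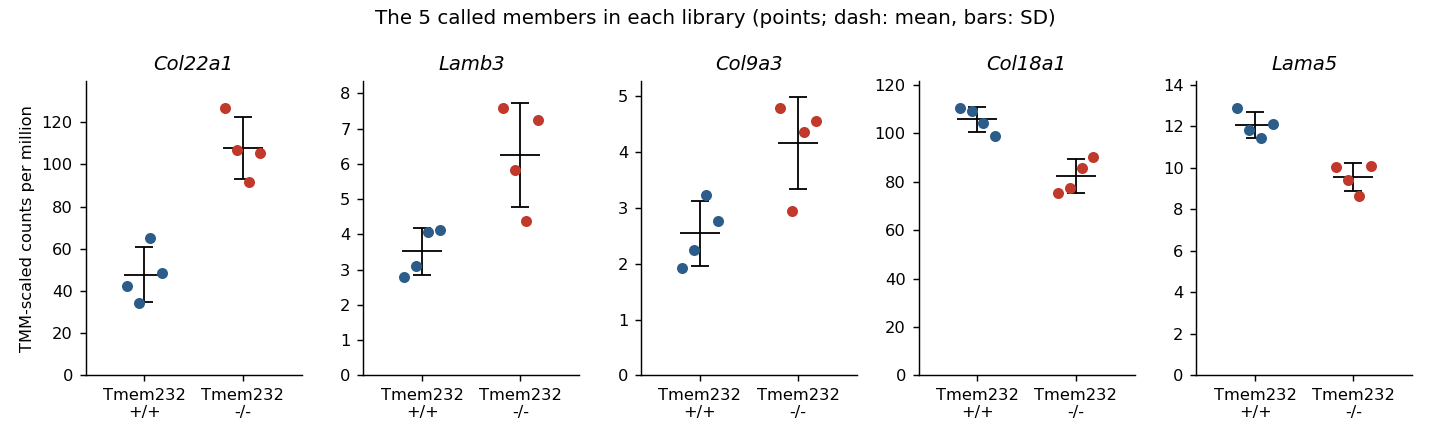
CPM of the 5 called genes in each library, with blue for Tmem232+/+ and red for Tmem232-/-, a dash for the mean and bars for the SD (n = 4). The genotypes are separate in Col22a1, Lamb3, Col18a1 and Lama5, while in Col9a3 the lowest Tmem232-/- library, at 2.95 CPM, lies below the highest Tmem232+/+ library, at 3.23 CPM.

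Among the called genes, RefSeq promoter entries (GRCm38.p6) were found for Col18a1, Lama5 and Lamb3, and 43 of the 61 genes had one. The bases before the start sites are shown for these 3 basement membrane genes because they are the ones that passed the test, and the capitals mark GC boxes (GGGCGG) and CCAAT boxes (CCAAT) on either strand. For Col18a1 and Lamb3, which have 2 entries each, 1 is printed. Those of Col18a1 are at chr10:77166531-77166780 (minus strand), those of Lama5 at chr2:180225910-180226109 (minus strand), and those of Lamb3 at chr1:193301744-193301993 (plus strand). The bases next to the Lama5 start site (base 180225859) are left out, because the RefSeq span of the gene reaches base 180225904. The printed stretch of Lama5 still lies inside the longer span that the deposited table gives for the gene, and that of Lamb3 lies inside the span of Lamb3 itself, which begins at base 193294353, so both are windows before 1 annotated start site and not before the outermost end of the gene in that table.
Col18a1: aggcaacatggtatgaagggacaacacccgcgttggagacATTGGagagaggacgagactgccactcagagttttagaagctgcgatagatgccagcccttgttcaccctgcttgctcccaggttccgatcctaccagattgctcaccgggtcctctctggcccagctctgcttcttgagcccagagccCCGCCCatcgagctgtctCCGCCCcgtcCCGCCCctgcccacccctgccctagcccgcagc
Lama5: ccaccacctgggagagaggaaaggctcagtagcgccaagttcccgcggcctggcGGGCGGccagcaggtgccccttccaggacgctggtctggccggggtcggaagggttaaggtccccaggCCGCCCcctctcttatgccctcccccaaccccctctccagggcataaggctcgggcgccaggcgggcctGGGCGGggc
Lamb3: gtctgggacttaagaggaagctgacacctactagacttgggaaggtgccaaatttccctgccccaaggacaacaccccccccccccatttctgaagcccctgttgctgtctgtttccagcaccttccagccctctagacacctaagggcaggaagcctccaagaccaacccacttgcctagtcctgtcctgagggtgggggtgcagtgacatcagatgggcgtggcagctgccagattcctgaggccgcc
The stretch of Col18a1 holds 3 GC boxes and 1 CCAAT box, that of Lama5 3 GC boxes, and that of Lamb3 neither, and none of them holds the letters TATAAA. The whole window of 250 bases before the Lama5 start site holds 4 GC boxes. The Col18a1 window that is not printed, at chr10:77113706-77113955, and that of Lamb3, at chr1:193301993-193302242, hold none of these motifs. In the 250 bases before the start, GGGCGG on either strand occurred in 55.3% of the 47 windows of the gene class and in 32.7% of all 32851 windows, CCAAT in 31.9% and 33.8%, and TATAAA in 10.6% and 12.4%. The median GC content was 59.2% in the class and 52.4% in all windows. No motif overlapped another in the printed stretches, and a match is a description of the sequence alone.

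The fibrillar collagens, which give tissues their tensile strength, had no call, and 9 of the 11 had negative log2 fold changes (median -0.19). Col1a2 was at 215, 362, 220 and 212 CPM in the Tmem232-/- libraries and at 381, 314, 217 and 299 CPM in the Tmem232+/+ libraries. Col3a1 was at 196, 375, 220 and 208 CPM in the Tmem232-/- libraries and at 358, 295, 203 and 284 CPM in the Tmem232+/+ libraries. In both, Tmem232-/- replicate 2 lay far above the other 3 libraries of its genotype, near the highest Tmem232+/+ library, and Tmem232+/+ replicate 3 was the lowest of its genotype (log2 fold changes -0.26 and -0.19, adjusted p = 0.44 and 0.61). Col1a1, which trimerizes with Col1a2, was at 175, 239, 140 and 138 CPM in the Tmem232-/- libraries and at 277, 227, 189 and 229 CPM in the Tmem232+/+ libraries. Its log2 fold change of -0.41 (SE 0.17, adjusted p = 0.16) did not pass the test, but without Tmem232-/- replicate 2 it was -0.61 with an adjusted p of 0.015. Col27a1 had the highest log2 fold change of the class at 0.62 (adjusted p = 0.090).

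Of the 9 FACIT collagens, 2 were called higher, beside 10.3% of all tested genes, and 5 had positive and 4 negative log2 fold changes. Col22a1 (gene 69700, chr15:71798476-72150978, GRCm38), a collagen known from tissue junctions such as those of muscle and tendon, showed the clearest difference of the class. It was at 127, 107, 91.5 and 105 CPM in the Tmem232-/- libraries and at 42.2, 34.5, 65.2 and 48.6 CPM in the Tmem232+/+ libraries. Every Tmem232-/- library was above every Tmem232+/+ library, with means of 108 ± 15 and 47.6 ± 13 CPM (SD, n = 4 each). The fitted difference was 2.26-fold (log2 fold change 1.18, SE 0.17, adjusted p = 0.00057, edgeR), and it passed the test in all 20 alternative fits, with log2 fold changes of 1.05 to 1.40. In FPKM Col22a1 was at 25.8 ± 3.3 in Tmem232-/- and 11.6 ± 3.3 in Tmem232+/+, which made it the tenth gene of the class in level. The order of the libraries followed that of the markers of elongating spermatids in part, since Tmem232-/- replicate 1 was highest and replicate 3 lowest in both, and Tmem232+/+ replicate 3 was highest and replicate 2 lowest of its genotype in both. Their part in the difference was not tested.

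Col9a3 (gene 12841, chr2:180598102-180622185, GRCm38), a chain of the collagen IX of cartilage, was at 4.79, 2.95, 4.36 and 4.55 CPM in the Tmem232-/- libraries and at 1.93, 2.24, 3.23 and 2.76 CPM in the Tmem232+/+ libraries. It rose 1.64-fold (log2 fold change 0.71, SE 0.21, adjusted p = 0.048, edgeR), but the genotypes overlapped and the counts were 31 to 74 per library. Its adjusted p was above 0.05 in 12 of 20 alternative fits and was between 0.086 and 0.13 without each of Tmem232-/- replicates 1, 3 and 4 and Tmem232+/+ replicates 1, 2 and 4. Col9a3 also overlaps, at 1 end, Tcfl5, a transcription factor gene of the testis on the other strand with a mean of 462 CPM in Tmem232-/- (log2 fold change -0.05, adjusted p = 0.77). Reads from the shared bases cannot be told apart. The chains that trimerize with Col9a3 did not pass the test. Col9a1 had a log2 fold change of 0.06, and Col9a2 one of -1.32 (SE 0.55, adjusted p = 0.16) on 4 to 29 counts per library, which passed without Tmem232-/- replicate 2 (-2.13, adjusted p = 0.035) or Tmem232+/+ replicate 3 (-1.58, adjusted p = 0.047). Col12a1, with a log2 fold change of 0.81 (SE 0.37, adjusted p = 0.20), was led by Tmem232-/- replicate 2 at 21.1 CPM, beside 7.45, 11.3 and 6.64 CPM in the other 3. Col16a1 and Col20a1, the other FACIT collagens at the highest levels, had log2 fold changes of -0.13 and -0.01, and the sign of both turned in some alternative fits.

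No beaded-filament or anchoring collagen was called. Col6a1 was at 65.5, 110, 69.7 and 71.5 CPM in the Tmem232-/- libraries and at 107, 96.6, 67.5 and 94.7 CPM in the Tmem232+/+ libraries (log2 fold change -0.21, adjusted p = 0.49). Col6a2, which assembles with it into beaded microfibrils, had Tmem232-/- values of 36.9, 72.6, 38.6 and 37.3 CPM and a log2 fold change of -0.24 (adjusted p = 0.56). In both, Tmem232-/- replicate 2 was again alone at the top of its genotype. Col6a3, the third chain of the trimer, had a log2 fold change of -0.10 whose sign turned when single libraries were left out, and Col6a6, a minor chain, one of -0.43 (adjusted p = 0.20). Col26a1 was close to the threshold (log2 fold change 0.69, adjusted p = 0.051), and was called by DESeq2, limma-voom, with DESeq2 size factors, somatic scaling, no filter or at least 10 counts per library, and without Tmem232-/- replicate 3 or Tmem232+/+ replicate 2. Of the short-chain collagens Col8a1 and Col8a2, known from endothelia and the cornea, the log2 fold changes were -0.10 and -0.43. Of the transmembrane collagens, Col17a1 of epithelial hemidesmosomes had all Tmem232-/- libraries (2.34 to 2.73 CPM) below all Tmem232+/+ libraries (2.74 to 3.87 CPM) without passing the test (log2 fold change -0.31, SE 0.16, adjusted p = 0.26), and Col23a1 and Col25a1 had log2 fold changes of -0.02 and 0.08.

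Neither glycoprotein passed the test. Sparc was at 692, 902, 862 and 900 CPM in the Tmem232-/- libraries and at 920, 1024, 778 and 983 CPM in the Tmem232+/+ libraries (log2 fold change -0.14, SE 0.11, adjusted p = 0.44). Fn1, fibronectin, had a log2 fold change of -0.21 (SE 0.16, adjusted p = 0.46). Col4a3bp, which is no matrix gene, was at 96.7 to 114 CPM in Tmem232-/- and at 87.7 to 96.3 CPM in Tmem232+/+, without overlap (log2 fold change 0.20, adjusted p = 0.086), and passed the test without Tmem232-/- replicate 4 (adjusted p = 0.030) or Tmem232+/+ replicate 3 (0.039).

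Ratios of FPKM within a library were compared between genotypes for 15 pairs of genes, some of which encode chains of 1 trimer and others alternative chains, nidogens or chains of separate trimers. None passed the test, with a lowest exact permutation p of 0.14 (two-sided, over 70 arrangements, smallest possible 0.029) and a lowest adjusted p of 0.75. Col3a1 to Col1a2 lay within 0.851 and 0.969 and Col1a1 to Col1a2 within 0.558 and 0.764 in the 8 libraries. The ratio of Lama1 to Lama2 ran from 0.588 to 1.23 and was above 1 in Tmem232-/- replicate 1 and Tmem232+/+ replicate 3 alone. The small number of libraries limits what such a test can find, and the lack of a call does not show that the ratios are equal.

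**Figure D4:**
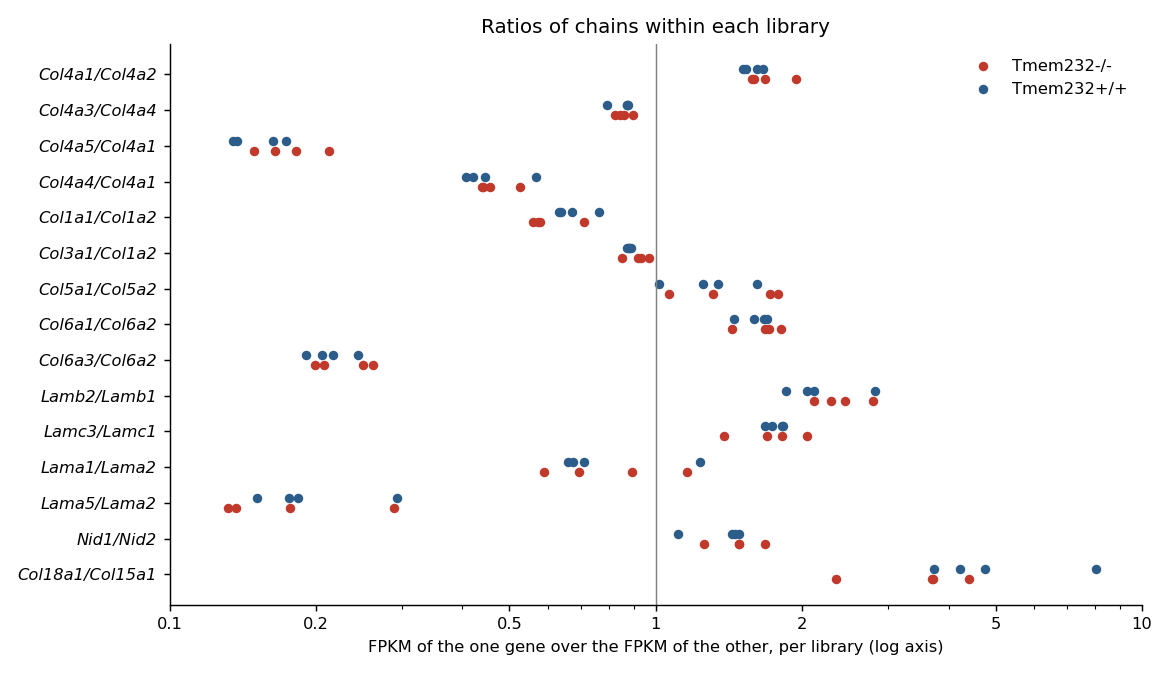
Ratio of the FPKM of both genes of each of 15 pairs in every library (log axis), with blue for Tmem232+/+ and red for Tmem232-/-. The ratios of Col3a1 to Col1a2 and of Col4a3 to Col4a4 span the least, and the points of the genotypes overlap in each pair.

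Single libraries moved the basement membrane genes of the class together. Of the 22 basement membrane genes, Tmem232-/- replicate 1 was the lowest of its genotype in 16 and replicate 2 the highest in 14, and Tmem232+/+ replicate 3 was the lowest in 17 and replicate 2 the highest in 16. Over all tested genes these libraries held those places in 22.3%, 18.8%, 35.4% and 26.2%. In the 60 tested genes of the class they held them in 23, 33, 36 and 21. There, Tmem232-/- replicate 1 was also the highest of its genotype in 16 genes and Tmem232+/+ replicate 3 in 13. The median deviation of the 22 genes from the mean of all 8 libraries was -0.29 (log2) in Tmem232-/- replicate 1 and -0.21 in Tmem232+/+ replicate 3, and it lay between -0.09 and 0.26 in the other 6. Markers of endothelial cells had a like order, with medians of -0.35 and -0.27 in these libraries and -0.09 to 0.23 in the others. The median over 8 macrophage markers was also lowest of each genotype in these libraries (-0.37 and -0.26), beside -0.18 to 0.25 in the others, though not every marker had this order. The 5 markers of red blood cells summed to 150 CPM in Tmem232-/- replicate 1, to between 282 and 317 CPM in Tmem232-/- replicates 3 and 4 and Tmem232+/+ replicate 3, and to between 546 and 596 CPM in the other 4. Markers of Sertoli cells and peritubular myoid cells, the makers of the tubule wall, had medians of -0.15 and -0.26 in Tmem232-/- replicate 1 and of 0.07 and 0.22 in Tmem232+/+ replicate 3. Neither list had its lowest Tmem232-/- median in replicate 1, since Sertoli cell markers were at -0.17 in replicate 2 and myoid markers at -0.28 in replicate 3. The part of these cells in the pattern was not tested. Other parts of the class had another order. The FACIT collagens had medians of 0.14 in Tmem232-/- replicate 1 and 0.01 in Tmem232+/+ replicate 3. The matrix genes outside the basement membrane had their lowest Tmem232-/- median in replicate 3 (-0.20), beside -0.11 in replicate 1. Without both Tmem232-/- replicate 1 and Tmem232+/+ replicate 3, the median log2 fold change of the 60 genes was -0.15, Col22a1, Lamb3 and Col9a3 were called higher and Col18a1 lower.

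**Figure D5:**
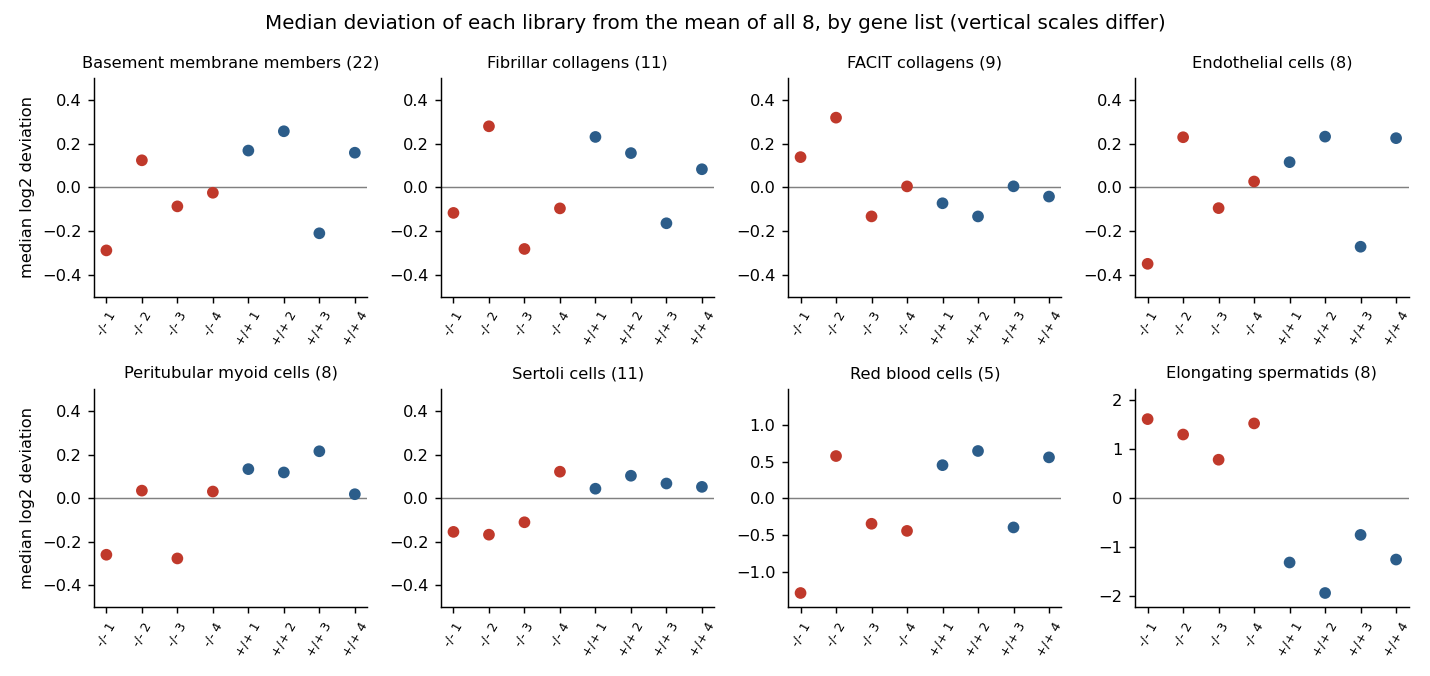
Median log2 deviation of each library from the mean of all 8 for the 22 basement membrane genes, 2 other collagen classes and 5 lists of cell markers, with the number of genes in brackets, red for Tmem232-/- and blue for Tmem232+/+ (vertical scales differ). Tmem232-/- replicate 1 and Tmem232+/+ replicate 3 are lowest in the basement membrane genes (-0.29 and -0.21) and the endothelial markers (-0.35 and -0.27).

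Between genotypes, the median log2 fold change of cell markers of the tubule wall and the interstitium was negative in some lists and positive in others. Beside the counts that follow, 10.3% of all tested genes were called higher and 1.46% lower. All 4 Tmem232-/- libraries lay above all 4 Tmem232+/+ libraries in 11.8% of all tested genes, and 9600 of the 15787 log2 fold changes were negative. The median log2 fold change was -0.13 over 11 Sertoli cell markers, with no call, and -0.31 over 8 markers of peritubular myoid cells, of which Acta2 and Myh11, contractile proteins, fell (-0.38 and -0.34) and Actg2 rose (1.20). The 8 endothelial markers had a median of -0.12 and no call. The 8 macrophage markers had a median of 0.04 and the 5 markers of red blood cells one of -0.63, without a call. Inside the tubule, 7 of 8 markers of spermatogonia had negative log2 fold changes (median -0.35), and Stra8, Sall4 and Uchl1 were called lower. Of 7 markers of Leydig cells, the steroid-producing cells of the interstitium, 6 had positive log2 fold changes, with a median of 0.46 and no call, and their summed level was 402 to 571 CPM in Tmem232-/- and 254 to 436 CPM in Tmem232+/+. Cyp17a1 and Star, which act in steroid synthesis, had all Tmem232-/- libraries above all Tmem232+/+ libraries (log2 fold changes 0.82 and 0.34, adjusted p = 0.13 and 0.072), and Lhcgr, the receptor for luteinizing hormone, had a log2 fold change of 0.95 (adjusted p = 0.051). Of 5 tested markers of the tunica and fibroblasts 2 fell, with a median of -0.45, and the summed level of all 7 listed genes, 2 of them removed by the filter on low counts, was 48.1 to 71.4 CPM in Tmem232-/- and 56.1 to 84.5 CPM in Tmem232+/+. Of 5 epididymal markers only Crisp1 and Rnase10 were tested, and Crisp1 reached 27.0 and 9.94 CPM in Tmem232+/+ replicates 1 and 3 and 5.52 CPM in Tmem232-/- replicate 1 and was below 1 CPM in the other 5 libraries. Whether these cells had a part in the differences of the matrix genes was not tested.

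The genes that fold, process, bind and break down the matrix were described from 6 lists with 111 genes in the table, of which 99 were tested, 2 were called higher and 5 lower, with a median log2 fold change of -0.16. Over all tested genes 10.3% were called higher and 1.46% lower, and the share called in either direction was 7.07% of these 99 genes beside 11.8% of all. The 2 higher genes are both collagen-binding integrin subunits. Itga1 was at 33.5, 36.0, 33.6 and 27.9 CPM in the Tmem232-/- libraries and at 19.6, 19.7, 15.6 and 23.9 CPM in the Tmem232+/+ libraries (log2 fold change 0.74, SE 0.13, adjusted p = 0.0020). Itga11 was at 3.86, 4.21, 4.17 and 4.0 CPM in the Tmem232-/- libraries and at 2.12, 1.39, 2.22 and 1.97 CPM in the Tmem232+/+ libraries (log2 fold change 1.08, SE 0.17, adjusted p = 0.0011). Neither overlapped between genotypes, and both passed the test in all 20 alternative fits. The other 13 tested integrin subunits were not called, among them Itgb1, the beta chain that pairs with both (log2 fold change -0.14).

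Of the other 9 receptors, the collagen receptor Ddr1 fell (log2 fold change -0.39, adjusted p = 0.042), and Cd44, a receptor for hyaluronan, did not pass (-0.80, adjusted p = 0.059). Among 17 tested genes of collagen folding and modification, the lysyl hydroxylase Plod3, which also adds sugars to collagen, fell (-0.34, SE 0.076, adjusted p = 0.011), as did P3h3 of the prolyl hydroxylase family (-0.52, SE 0.15, adjusted p = 0.045). Plod3 was at 19.9 to 21.5 CPM in Tmem232-/- and at 24.6 to 28.2 CPM in Tmem232+/+, without overlap. None of 12 tested genes of procollagen processing and cross-linking was called, with Bmp1, the procollagen C-proteinase, at -0.32 (adjusted p = 0.051) and the lysyl oxidase Loxl1 at -0.22 (adjusted p = 0.16). Of 13 tested genes of breakdown and its inhibitors, the metalloproteinase Mmp11 fell (-0.50, adjusted p = 0.018), and Timp3, an inhibitor bound to the matrix, had a log2 fold change of -0.18 (adjusted p = 0.25). Of 33 other matrix genes Eln, the elastin of elastic fibres, fell. It was at 84.2, 114, 85.2 and 83.6 CPM in the Tmem232-/- libraries and at 173, 135, 107 and 130 CPM in the Tmem232+/+ libraries, with overlap at Tmem232-/- replicate 2 and Tmem232+/+ replicate 3 (log2 fold change -0.57, SE 0.14, adjusted p = 0.024). The basement membrane proteoglycan Agrn was at -0.31 (adjusted p = 0.062). Single libraries decided several of these calls. That of Ddr1 was lost without each of Tmem232-/- replicates 1, 2 and 3 and of the 4 Tmem232+/+ replicates (adjusted p = 0.051 to 0.18), that of P3h3 without Tmem232-/- replicate 1, 3 or 4 or Tmem232+/+ replicate 1, 2 or 3 (0.073 to 0.17), that of Mmp11 without Tmem232-/- replicate 1 or 2 or Tmem232+/+ replicate 1, 2 or 3 (0.052 to 0.069), that of Eln without Tmem232-/- replicate 1, 3 or 4 or Tmem232+/+ replicate 1 or 2 (0.052 to 0.10) and that of Plod3 without Tmem232+/+ replicate 1 (0.050). Other settings also ended calls, that of P3h3 with DESeq2, its size factors, somatic scaling, FPKM plus 0.1 or no filter (0.050 to 0.085), that of Ddr1 with DESeq2 size factors or no filter (0.053 and 0.084) and that of Plod3 with somatic scaling (0.079). Without both Tmem232-/- replicate 1 and Tmem232+/+ replicate 3, the calls of Ddr1, P3h3 and Mmp11 were lost (0.077, 0.16 and 0.13). Without Tmem232-/- replicate 4, Bmp1, Cd44 and Agrn passed the test (0.023, 0.048 and 0.046). Bmp1 also passed with library size alone (0.042) and with limma-voom (0.047), and Cd44 with at least 10 counts per library (0.047).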

How the data were processed

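Libraries were prepared from total RNA (TRIzol) with a TruSeq RNA kit and sequenced in pairs of reads on a BGIseq machine. The authors mapped reads to GRCm38.p6 with HISAT and Bowtie2, counted them with StringTie and featureCounts and tested them with DESeq2, with versions not given in the sources used here. As deposited, estimated counts per gene carry no normalization, are not whole for 10.7% to 11.2% of genes per library, and were rounded. The deposited FPKM were scaled by the authors to gene length and library. The authors' mean columns, log2 fold change, p-value and q-value columns hold their own comparison and were not used.

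Rounded counts were tested in R 4.3.3 with edgeR 4.0.16 (default filter on low counts, TMM scaling, quasi-likelihood test, no covariates, Benjamini-Hochberg adjustment over 15787 genes, threshold 0.05). The SE is the absolute log2 fold change over the square root of F. In simulated counts for this comparison (15650 genes tested, 199 changed) edgeR recovered 93.5% of changed genes, with 5.58% false calls. The recovery of differences smaller than those set in these counts was not tested. Alternatives used DESeq2 1.42.0, limma 3.58.1 (voom, or log2 of FPKM plus 1 or 0.1), other scalings and filters, and left out libraries. Somatic scaling set libraries to the geometric mean of Sertoli, Leydig, peritubular myoid and endothelial markers. A count of 0 allows up to 3 counts, which covers counting error alone. Ratios were compared by exact two-sided permutation of 4 against 4 libraries (scipy 1.17.1).

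Genes named are Tmem232, every called gene of the class, in each class the 3 highest in mean FPKM, the 3 genes with the largest and the 3 with the smallest log2 fold change, and in each companion list the 2 with the smallest p. Others (Col4a3, Col4a5, Col4a6, Col9a1, Col26a1, Col27a1, Lama1, Lama2, Lama3, Itgb1, Rtraf, Tcfl5 and cell markers) were added after their values were seen. The members and lists were chosen with earlier results of these data known. One gene of the class is counted in the totals but not reported here by itself.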

Additional observations from a re-analysis of the deposited data

Results flagged for a closer look

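In 154 groups of 4 libraries, 13 had 1 library farther from the others than Dixon's critical value allows, where chance alone gives about 7.7. Tmem232-/- replicate 2 stood above the other Tmem232-/- libraries in 6 genes, namely Col1a2 (362 CPM), Col3a1 (375 CPM), Col6a1 (110 CPM), Col6a2 (72.6 CPM), Col9a2 (1.13 CPM) and Eln (114 CPM). Most of these are fibrillar, beaded-filament or elastic fibre genes of the interstitium and vessel walls, and in each its value lay within or close to the range of Tmem232+/+.

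Tmem232+/+ replicate 3 stood below the other Tmem232+/+ libraries in Nid1 (49.5 CPM), in the median log2 deviation of the 3 linkers and proteoglycans (-0.23) and in that of the matrix genes outside the basement membrane (-0.16). It also stood apart in the ratio of Nid1 to Nid2 (1.11) and of Lama1 to Lama2 (1.23). Tmem232-/- replicate 1 stood above the others of its genotype in the ratio of Col1a1 to Col1a2 (0.713), and Tmem232+/+ replicate 1 below in that of Col4a3 to Col4a4 (0.792).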

How the results depend on the processing

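The median log2 fold change of the 60 genes was negative in all fits, from -0.21 to -0.04. Col22a1 was called in every fit, and the other 4 calls were each lost in some. Counts of calls moved by over 1.5 times as follows. Among the 60 genes, 6 were called higher with DESeq2 (adding Col26a1, Col27a1 and Col4a3bp), 5 with no filter on low counts, and 1 (Col22a1) under a rule of 2-fold and an unadjusted p under 0.05. Called lower was 1 gene, Col18a1, with DESeq2, DESeq2 size factors, FPKM plus 1 or 0.1, no filter, or at least 10 counts per library, 0 with somatic scaling and 1 (Col9a2) under the 2-fold rule. Leaving out single libraries gave 1 to 6 higher and 0 to 3 lower. Over all tested genes, 131 were called lower with DESeq2 size factors, 415 with library size alone, 68 with somatic scaling, 466 and 448 with FPKM plus 1 and 0.1, 71 with no filter and 37 to 356 without single libraries, and the 2-fold rule gave 865 higher and 18 lower. Without both Tmem232-/- replicate 1 and Tmem232+/+ replicate 3, an alternative chosen after seeing the data, 74 genes of all and 1 gene of the class (Col18a1) were called lower.

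Among the genes named by rule, signs turned in those that follow, with main log2 fold changes between -0.13 and 0.12. Genes added after their values were seen, such as Col4a5, Col4a6 and Col9a1, are not covered. Col20a1 had log2 fold changes of 0.0173 with DESeq2 and with its size factors, 0.0356 with no filter, 0.00032 with at least 10 counts per library and 0.050 without both libraries, and Col23a1 had 0.0030, 0.0028 and 0.0220 with DESeq2, its size factors and no filter and 0.12 without both libraries. Without single libraries the ranges were -0.067 to 0.11 for Col20a1, -0.13 to 0.074 for Col23a1, -0.51 to 0.066 for Col6a3, -0.066 to 0.28 for Col15a1, -0.040 to 0.25 for Col25a1, -0.30 to 0.22 for Col8a1 and -0.20 to 0.0020 for Col16a1. The cause was not tested.

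The labels do not say that same-numbered libraries of both genotypes shared a litter or a batch. Correlations of their deviations were -0.06, 0.07, -0.33 and -0.11. For libraries with different numbers they ran from -0.32 to 0.39, for Tmem232-/- replicate 1 with Tmem232+/+ replicates 2 and 3. Such correlations cannot show whether libraries shared a litter or a batch. With the replicate number as a block, 1 gene of the class (Col22a1) was called higher and 0 lower, beside 1317 and 28 of all tested genes. The calls of Tmem232, Plod3, Ddr1, P3h3 and Mmp11 were also lost (adjusted p = 0.11, 0.081, 0.11, 0.11 and 0.066). At this depth, genes with few counts, such as Col9a2 and Col10a1, allow no firm statement.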
